A study of Mus musculus with 45 samples.

Results

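The comparison described here is that of late two-cell mouse embryos in which the transcription factor GABPA was degraded with embryos in which it was not. It rests on 6 RNA-seq samples, 3 per group, out of 45 samples in the series. The rule for choosing them was the stage and the treatment named in the labels, and all genes in their tables were examined. All embryos, controls included, were *Gabpa*-dTAG/dTAG, so both copies of the gene carried a tag that the small molecule dTAG13 uses to send the fusion protein to the proteasome. Embryos came from in vitro fertilisation and were cultured in KSOM medium with 1 μM dTAG13 or with DMSO, the solvent, from 6 to 30 h post fertilization (hpf). The knock-in line was made by editing two-cell embryos and crossing the founders to C57BL/6J, and the number of embryos pooled per sample was not given in the sources used here. No group without the tag received dTAG13 in this comparison, so an action of the molecule that does not pass through GABPA cannot be told apart from the loss of GABPA. Nothing in the labels ties the replicates to separate fertilisations, so p-values measure the spread between these samples.

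GABPA is the DNA-binding subunit of the GABP complex and a member of the ETS family, whose members bind a short purine-rich core in promoters. GABPB1 and GABPB2 are its partners, which carry the activation domain. The complex is known for activating genes that most cells use, among them genes for ribosome assembly, mitochondrial translation and oxidative phosphorylation. In mouse embryos the late two-cell stage is the time of major zygotic genome activation (ZGA), when the embryo's own genes take over from RNA stored in the oocyte.

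Each library held 20449966 to 23718870 expected counts, and transcripts of the mitochondrial genome took 7.72% to 10.3% of them. The first principal component separated the groups and carried 51.8% of the variance. The label of the stage was checked against 42 two-cell stage genes, of which 41 reached 1 FPKM (fragments per kilobase of transcript, scaled to library size) in a library, and their summed level was 2359 to 3388 FPKM with DMSO and 2523 to 3474 FPKM with dTAG13. One library stood apart. The summed level of 24 leukocyte and inflammation markers was 903 FPKM in dTAG13 replicate 1 and 45.6 to 56.0 FPKM in the other 5 libraries, while *S100a8*, *S100a9*, *Cxcl1*, *Itgax* and *Tnf* were at 0 in every library. That library also lay apart on the third principal component (13.0% of the variance), at 25.6 against -15.4 to 10.4 for the others. Without it 14 of the named genes past the adjusted p of 0.05 missed that threshold, namely *Gabpa*, *Saa3*, *Cyba*, *Gm12195*, *Gm11659*, *Obox3*, *Zscan4a*, *Tnfaip6*, *Ccnd3*, *Ccne2*, *Aen*, *Polk*, *Psph* and *Nlrp4c*. Leaving out any other library ended 12 to 17 such calls. The part of the marker transcripts in these differences was not tested.

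The targeted gene was examined first. Since dTAG13 acts on the protein, the *Gabpa* transcript does not check the degradation, and the protein was not measured in these data. *Gabpa* (ENSMUSG00000008976.16, chromosome 16 from 84834925 to 84863779 of GRCm38) stood at 111, 125 and 90.9 FPKM with DMSO and 170.1, 153 and 163 FPKM with dTAG13, given here and below in the order of replicates 1, 2 and 3. All 3 treated samples lay above all 3 controls, and the transcript rose by 0.52 ± 0.11 (log2 fold change ± SE from edgeR's quasi-likelihood test, Benjamini-Hochberg adjusted p = 0.0124). Without dTAG13 replicate 1 the value was 0.50 with an adjusted p = 0.0556, and without dTAG13 replicate 3 it was 0.50 with an adjusted p = 0.0504. *Gabpb1* (ENSMUSG00000027361.15, chromosome 2 from 126627442 to 126676337), the partner subunit with the highest transcript level, stood at 167, 203 and 152 FPKM with DMSO and 289, 282 and 293 FPKM with dTAG13 and rose by 0.65 ± 0.10 (adjusted p = 0.00228), a call that held without any 1 of the 6 libraries. *Gabpb2*, the other partner, stood at 40.1, 42.9 and 32.4 FPKM with DMSO and 52.7, 49.7 and 43.2 FPKM with dTAG13, also without overlap, but its fold change from the counts, 0.039 ± 0.12, did not pass the test (adjusted p = 0.905), nor did that of 0.33 from log2(FPKM + 1) with limma (adjusted p = 0.2).

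At the thresholds used, more transcripts fell than rose after treatment. Whatever their p, 8313 of the genes tested had a negative log2 fold change and 9108 a positive one. A gene was called when its adjusted p was under 0.05, its fold change at least 2 and its mean at least 1 FPKM in a group. Of 17421 genes tested, 633 (3.63%) were called lower and 83 (0.476%) higher. At the adjusted p alone, 1262 (7.24%) were lower and 230 (1.32%) higher. The genes called lower had a median of 21.4 FPKM with DMSO and 6.52 FPKM with dTAG13, a median log2 fold change of -1.53, and 173 of them fell at least 4-fold and 49 at least 8-fold. Those called higher were weakly expressed, with a median of 1.8 FPKM with DMSO and 5.6 FPKM with dTAG13. Protein-coding genes made up 584 of the genes called lower and 59 of those called higher. The count of genes called higher was 45 without dTAG13 replicate 1 and 52 without DMSO replicate 1, whereas that of genes called lower stayed between 533 and 590 in the 6 fits that left out a library. Every change is relative to the other transcripts of the library, and in such bulk samples less RNA per cell cannot be told apart from fewer cells that express a gene. With upper-quartile scaling the median log2 fold change over the genes tested moved from 0.024 to 0.14, and 33.5% of the genes past the adjusted p were then higher, against 15.4% with TMM scaling.

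Among genes with a mean of at least 10 FPKM in a group, the steepest decreases spanned several cell functions. *Tufm* encodes the elongation factor that brings aminoacyl-tRNA to the mitochondrial ribosome (ENSMUSG00000073838.10, chromosome 7 from 126487361 to 126490731), and it stood at 15.5, 17.2 and 13.5 FPKM with DMSO and 0, 0.430 and 1.00 FPKM with dTAG13. *Mrpl33*, a protein of the large mitochondrial ribosomal subunit (ENSMUSG00000106918.3, chromosome 5 from 31596935 to 31664384), stood at 100.1, 86.8 and 86.6 FPKM with DMSO and 2.47, 2.04 and 2.46 FPKM with dTAG13. *Surf2*, from a cluster of housekeeping genes (ENSMUSG00000014873.15, chromosome 2 from 26916367 to 26920183), stood at 92.1, 104 and 96.8 FPKM with DMSO and 1.2, 2.18 and 3.60 FPKM with dTAG13. These 3 genes were left at a few per cent of their control level, with log2 fold changes of -5.28 ± 0.71, -5.21 ± 0.23 and -5.06 ± 0.27 (adjusted p = 0.000866, 4.37e-06 and 4.82e-06). *Tufm* shares 58.2% of its 31-base words with other genes, mainly the pseudogene *Gm9755*, so part of its reads may have been assigned elsewhere.

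*Bet1l*, a SNARE protein of Golgi transport (ENSMUSG00000025484.9, chromosome 7 from 140853394 to 140857577), stood at 57.3, 33.7 and 43.3 FPKM with DMSO and 2.02, 1.28 and 0.860 FPKM with dTAG13, a change of -4.59 ± 0.23 (adjusted p = 4.37e-06). *Exoc3*, a subunit of the exocyst that tethers secretory vesicles (ENSMUSG00000034152.6, chromosome 13 from 74169488 to 74208732), stood at 23.3, 24.3 and 18.1 FPKM with DMSO and 1.53, 1.75 and 1.58 FPKM with dTAG13, a change of -3.79 ± 0.23 (adjusted p = 6.64e-06). *Pdcd6*, a calcium-binding protein of vesicle transport on the same chromosome (ENSMUSG00000021576.6, chromosome 13 from 74303509 to 74317580), stood at 70.2, 50.7 and 48.3 FPKM with DMSO and 4.74, 1.58 and 1.96 FPKM with dTAG13, a change of -4.40 ± 0.34 (adjusted p = 2.24e-05). In each of these 3 membrane-traffic genes the highest treated sample was below the lowest control by a wide margin. *Tmem126a*, a mitochondrial inner membrane protein that takes part in assembling respiratory complex I (ENSMUSG00000030615.12, chromosome 7 from 90450700 to 90457229), stood at 41.3, 36.8 and 58.9 FPKM with DMSO and 2.58, 1.69 and 2.82 FPKM with dTAG13 and fell by 4.16 ± 0.25 on the log2 scale (adjusted p = 6.64e-06). *Psmb4*, a subunit of the 20S proteasome core (ENSMUSG00000005779.12, chromosome 3 from 94884093 to 94886961), had the highest control level of the 10 and stood at 209.7, 248 and 187 FPKM with DMSO and 17.3, 14.6 and 22.3 FPKM with dTAG13, a change of -3.77 ± 0.19 (adjusted p = 4.37e-06).

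*Cox7b2*, a second form of a cytochrome c oxidase subunit best known from testis, stood at 15.5, 14.7 and 12.9 FPKM with DMSO and 1.22, 0 and 0.710 FPKM with dTAG13, and its change of -4.53 ± 0.67 rests on 0 to 11 counts per treated library (adjusted p = 0.00158). *Gm49383* stood at 46.5, 47.7 and 48.4 FPKM with DMSO and 1.5, 2.42 and 1.49 FPKM with dTAG13, a change of -4.78 ± 0.24 (adjusted p = 4.37e-06). It is a read-through gene model, and 92.5% of its words are shared with *Dnaaf2* and other genes of the locus, so its value cannot be separated from theirs. All 10 decreases had libraries that did not overlap between the groups, which the rule for naming them required, and all 10 calls held without any 1 library.

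**Figure D1:**
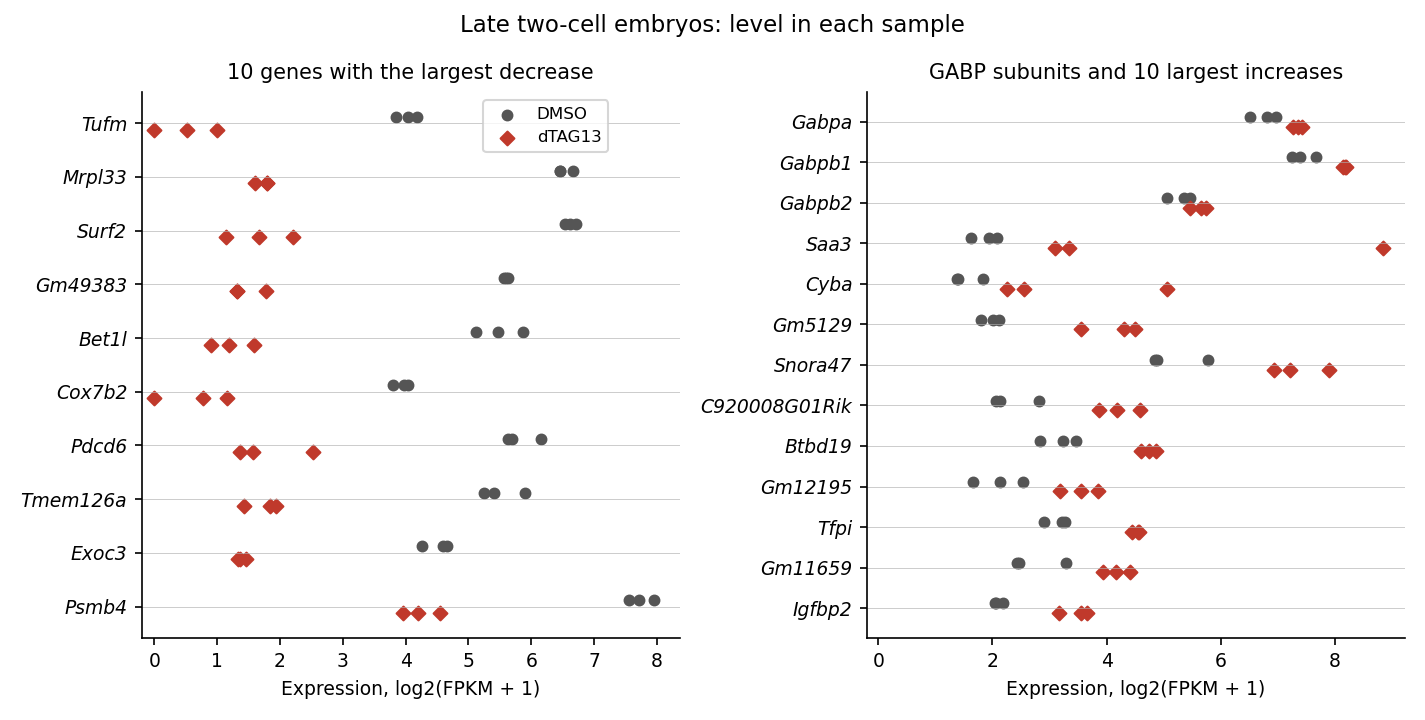
Expression of 23 genes in each late two-cell sample, on a scale of log2(FPKM + 1), with DMSO samples as grey circles and dTAG13 samples as red diamonds. On the left, the 10 genes with the largest decrease show treated samples far below the controls. On the right are the 3 GABP subunits and the 10 largest increases, among which *Saa3* and *Cyba* have 1 treated sample, replicate 1, far above the other 2.

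Promoter sequences of the members show where the ETS core lies. RefSeq promoters of GRCm38.p6, from 250 bases before to 50 after the annotated start, were searched for the letters CCGGAAG on both strands, matches that overlap being counted separately, and 1 promoter per gene was used, the one nearest to the start in GENCODE. Of the 17421 genes tested, 11625 could be matched, as could 497 of the 633 called lower and 50 of the 83 called higher. The motif stood in 297 (59.8%) of the promoters of genes called lower, in 3 (6%) of those of genes called higher and in 1975 (17%) of those of all matched genes. The 3 genes called higher with a match were *Cfap126*, *Efcab12* and *Gm12992*, named after their values were seen. The motif stood in 8.86% of all 32851 promoters of the table, and in 19.4% of those of protein-coding genes with a mean of at least 1 FPKM in a group. Among the latter genes, 287 of 1722 with the motif (16.7%) were called lower, against 194 of 7149 without it (2.71%). The share was 13.2% with 1 motif and 30.3% with 2 or more. It was 22.2% for a motif starting between 50 bases before and 30 after the start and 8.1% for motifs elsewhere in the window. Median log2 fold changes were 0.046 without the motif, -0.27 with 1 and -0.58 with 2 or more. These are descriptions without a test, a match is not a bound site, and 200 matched genes called lower had no such letters in this window.

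**Figure D2:**
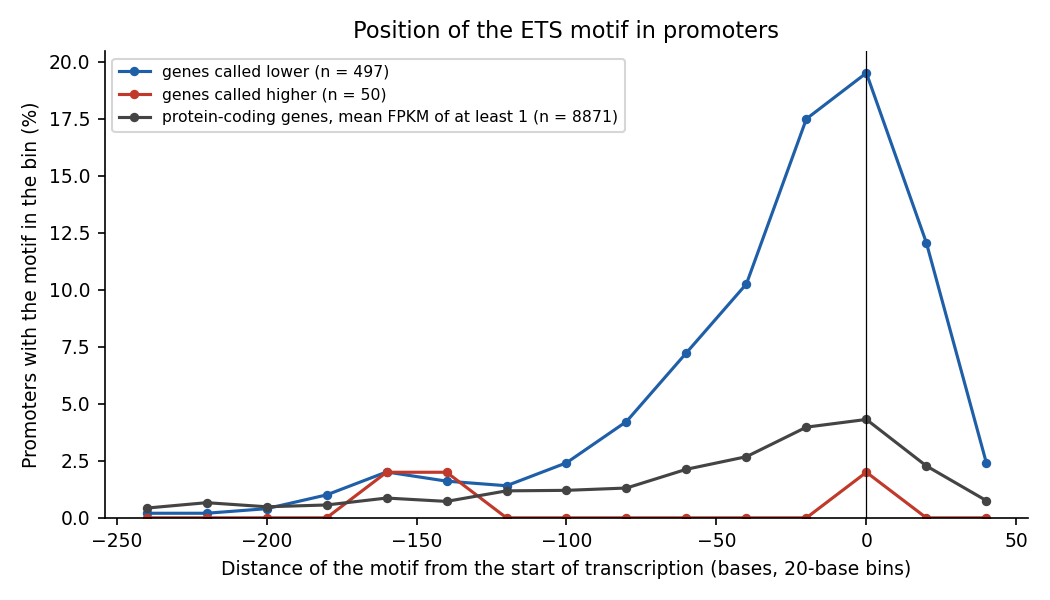
Share of promoters (%) with the letters CCGGAAG or their reverse complement starting in each 20-base bin, by distance from the start of transcription, for 497 genes called lower, 50 called higher and 8871 protein-coding genes with a mean of at least 1 FPKM in a group. Among genes called lower the share rose from 0.201% in the most distant bin to 19.5% in the bin around the start and dropped to 2.41% in the last bin.

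The promoters of 7 genes with steep decreases are shown, among them that of *Psmb4*, which lacks the exact letters. They place the motif for the members above and below. They are written 5′ to 3′ on the strand of the gene, with CCGGAAG or its reverse complement CTTCCGG in capitals. *Tufm* (chr7:126487105-126487404, plus strand) carries the motif 2 bases before the start, *Tmem126a* (chr7:90457154-90457453, minus strand) 35 bases before it and *Mrps18a* (chr17:46110754-46111053, plus strand), a mitochondrial ribosomal protein, 26 bases before it. *Mtx2* (chr2:74825562-74825861, plus strand), an outer membrane protein of mitochondrial import, carries 2 copies, 25 bases before and 6 after the start. *Surf2* (chr2:26916158-26916457, plus strand) and *Surf1* (chr2:26916481-26916780, minus strand) are neighbours transcribed away from each other, and the windows hold 2 copies and 1 copy. *Psmb4* (chr3:94886909-94887208, minus strand) has no exact match, while its log2 fold change of -3.77 lay within the range of the other 6. Its window holds cttccgt and tttccgg, which each differ from CTTCCGG by 1 letter. The search did not count such near matches.
Tufm: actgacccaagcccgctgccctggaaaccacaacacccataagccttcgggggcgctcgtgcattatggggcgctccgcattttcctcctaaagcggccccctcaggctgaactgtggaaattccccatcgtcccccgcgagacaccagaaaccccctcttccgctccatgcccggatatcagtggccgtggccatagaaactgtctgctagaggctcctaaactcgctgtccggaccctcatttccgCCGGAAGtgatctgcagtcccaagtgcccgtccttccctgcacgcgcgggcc
Tmem126a: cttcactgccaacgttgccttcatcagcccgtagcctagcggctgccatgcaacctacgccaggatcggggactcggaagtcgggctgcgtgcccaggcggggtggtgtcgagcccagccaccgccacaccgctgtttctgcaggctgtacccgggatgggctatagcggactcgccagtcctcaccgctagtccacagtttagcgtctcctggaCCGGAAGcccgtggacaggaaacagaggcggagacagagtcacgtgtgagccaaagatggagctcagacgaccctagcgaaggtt
Mrps18a: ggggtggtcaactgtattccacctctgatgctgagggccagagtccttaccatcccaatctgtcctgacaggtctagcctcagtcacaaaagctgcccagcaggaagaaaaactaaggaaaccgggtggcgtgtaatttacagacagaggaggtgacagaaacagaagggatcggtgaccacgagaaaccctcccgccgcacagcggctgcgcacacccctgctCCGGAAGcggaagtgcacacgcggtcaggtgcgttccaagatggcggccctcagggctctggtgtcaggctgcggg
Mtx2: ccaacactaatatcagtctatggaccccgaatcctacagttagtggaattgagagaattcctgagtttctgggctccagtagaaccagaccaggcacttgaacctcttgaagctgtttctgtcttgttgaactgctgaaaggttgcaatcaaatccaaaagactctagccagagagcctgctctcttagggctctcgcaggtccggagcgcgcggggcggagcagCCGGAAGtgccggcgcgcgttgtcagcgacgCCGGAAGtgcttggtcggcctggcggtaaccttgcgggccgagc
Surf2: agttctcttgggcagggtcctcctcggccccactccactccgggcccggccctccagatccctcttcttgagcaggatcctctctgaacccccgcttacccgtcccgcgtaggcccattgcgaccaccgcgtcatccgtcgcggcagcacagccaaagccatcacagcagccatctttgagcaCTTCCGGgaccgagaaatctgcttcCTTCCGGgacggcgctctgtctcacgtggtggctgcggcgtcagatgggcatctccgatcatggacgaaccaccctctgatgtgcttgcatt
Surf1: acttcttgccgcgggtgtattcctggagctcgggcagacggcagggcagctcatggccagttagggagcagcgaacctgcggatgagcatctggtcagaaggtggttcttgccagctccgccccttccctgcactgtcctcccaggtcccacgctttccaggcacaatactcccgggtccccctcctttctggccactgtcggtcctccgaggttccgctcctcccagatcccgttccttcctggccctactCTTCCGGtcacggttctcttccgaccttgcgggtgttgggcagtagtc
Psmb4: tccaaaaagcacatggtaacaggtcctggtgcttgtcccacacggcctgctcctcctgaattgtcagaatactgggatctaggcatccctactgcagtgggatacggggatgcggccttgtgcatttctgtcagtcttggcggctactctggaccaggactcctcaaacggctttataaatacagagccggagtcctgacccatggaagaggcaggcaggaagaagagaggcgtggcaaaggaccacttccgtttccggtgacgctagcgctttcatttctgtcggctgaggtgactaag

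Genes of mitochondrial gene expression fell in large numbers. In 16 of the 43 gene groups examined at least 20% of the tested members fell at the adjusted p, against 7.24% of all genes tested. Of 83 mitochondrial ribosomal proteins, all tested, 36 fell and 1, *Mrpl45* (0.38 ± 0.10, adjusted p = 0.044, a call lost whichever library was left out), rose, 21 were called lower, and the median log2 fold change was -0.34, against 0.024 for all genes tested. Members that are named here only because few of their group rose were picked after their values were seen. *Mrps18a* stood at 40.8, 45.2 and 45.7 FPKM with DMSO and 4.77, 4.11 and 5.73 FPKM with dTAG13. *Mrpl43* stood at 116, 115 and 116 FPKM with DMSO and 20.3, 23.2 and 28.9 FPKM with dTAG13, and *Mrps33*, more abundant, at 283, 272 and 286 FPKM with DMSO and 90.5, 84.5 and 88.2 FPKM with dTAG13. No control sample overlapped a treated one, and the log2 fold changes were -3.21 ± 0.19, -2.33 ± 0.14 and -1.66 ± 0.096 (adjusted p = 6.64e-06 for each). Part of *Mrpl43*, 33.4% of its exon bases, lies opposite exons of *Twnk*, and reads of the 2 genes cannot be told apart there because the libraries do not keep strand. Of the members with a promoter sequence, 20 of 24 with the CCGGAAG motif fell, with a median of -1.30, and 11 of 47 without it fell, with a median of -0.15.

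Among mitochondrial translation factors and tRNA synthetases, 7 of 36 fell and 1 rose. Without DMSO replicate 1 or 2 or dTAG13 replicate 2 the number lower was 4, and without dTAG13 replicate 1 it was 3, with the median moving from -0.13 to -0.019. Beside *Tufm*, *Slirp*, an RNA-binding protein that stabilises mitochondrial messengers, stood at 216, 174 and 191 FPKM with DMSO and 64.9, 60.6 and 82.7 FPKM with dTAG13, a change of -1.44 ± 0.15 (adjusted p = 0.000135), although 97.8% of its exon bases lie opposite *Alkbh1* and *Snw1*. *Rars2*, the mitochondrial arginyl-tRNA synthetase, fell by 1.56 ± 0.27 on the log2 scale (adjusted p = 0.00396). *Gatc*, a subunit of the enzyme that makes glutaminyl-tRNA in mitochondria, went the other way, from 1.38 ± 0.420 to 4.08 ± 0.707 FPKM (SD, n = 3), a change of 1.49 ± 0.32 (adjusted p = 0.0138) that passed the test in 3 of the 6 fits without a library. Of 16 factors that copy or transcribe mitochondrial DNA, 5 fell and none rose. *Tfam*, the packaging and transcription factor of that DNA, stood at 13.8, 14.8 and 11.3 FPKM with DMSO and 2.35, 3.00 and 7.05 FPKM with dTAG13, a change of -2.0 ± 0.30 (adjusted p = 0.00188), with replicate 3 the highest of the treated samples. *Twnk*, the replicative helicase, and *Mterf4*, a regulator of mitochondrial translation, changed by -1.65 ± 0.19 and -1.39 ± 0.18 (adjusted p = 0.000311 and 0.000625). Of the *Mterf4* exon bases, 35.2% lie opposite *Sned1*. *Ssbp1*, the single-strand binding protein, changed by -0.69 ± 0.12 (adjusted p = 0.00404), short of the fold change of 2.

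The 13 protein-coding transcripts of the mitochondrial genome itself did not pass the test as lower. Their median log2 fold change was 0.13, and 1, *mt-Nd4l*, was higher, by 0.86 ± 0.20 (adjusted p = 0.0252), a call made in 3 of the 6 fits without a library, while 2 were higher without dTAG13 replicate 1. The summed level of the 13 was 114615 to 136223 FPKM with DMSO and 132589 to 152257 FPKM with dTAG13, so the groups overlapped. The *mt-Nd4l* value is uncertain because 98.9% of its words also occur in a nuclear copy, *Gm10222*.

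Nuclear genes of oxidative phosphorylation fell in part. At the adjusted p, 9 of 37 complex I subunits, 6 of 13 subunits of complexes II and III, 5 of 16 nuclear subunits of cytochrome c oxidase, 10 of 22 factors that assemble it and 7 of 17 ATP synthase subunits were lower, and no member of these 5 groups was higher. The medians were -0.14, -0.43, -0.11, -0.50 and -0.10. Those of the oxidase subunits and of ATP synthase became 0.005 and 0.014 with upper-quartile scaling, so for these groups the median gives no direction, while their members past the test do. *Ndufa13* of complex I stood at 77.5, 69.6 and 70.8 FPKM with DMSO and 16.0, 15.2 and 14.0 FPKM with dTAG13, and *Sdhd*, a membrane anchor of complex II, at 55.2, 52.9 and 57.6 FPKM with DMSO and 18.6, 20.5 and 22 FPKM with dTAG13. The changes were -2.34 ± 0.13 and -1.51 ± 0.14 (adjusted p = 6.48e-06 and 5.64e-05). For *Ndufa13*, 29.98% of its exon bases lie opposite *Tssk6*, where reads cannot be told apart. More abundant subunits fell too. *Cox7a2* stood at 983, 1117 and 1145 FPKM with DMSO and 415, 372 and 400.3 FPKM with dTAG13. *Cox4i1* stood at 568, 606 and 593 FPKM with DMSO and 337, 311 and 288 FPKM with dTAG13. *Atp5a1*, the alpha subunit of ATP synthase, stood at 159.7, 151 and 144 FPKM with DMSO and 75.6, 86.4 and 83.6 FPKM with dTAG13. Their changes were -1.49 ± 0.089, -0.96 ± 0.089 and -0.93 ± 0.086, and only that of *Cox7a2* reached 2-fold.

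The assembly factors of cytochrome c oxidase had the lowest median of the 43 groups with all libraries, although 6 rather than 10 were lower without dTAG13 replicate 1 or 2. Without DMSO replicate 1 the median of mitochondrial DNA factors was lower (-0.488 against -0.473). Without DMSO replicate 3 that of complexes II and III was lower (-0.564 against -0.552). *Surf1*, which helps form the catalytic core, stood at 47.4, 70.7 and 59.4 FPKM with DMSO and 4.71, 4.05 and 5.71 FPKM with dTAG13. *Cox17*, the copper chaperone, stood at 411, 371 and 354 FPKM with DMSO and 100.0, 126 and 101 FPKM with dTAG13, and *Sco1*, which passes copper to the enzyme, at 10.7, 7.79 and 8.99 FPKM with DMSO and 2.66, 2.16 and 3.67 FPKM with dTAG13. Their changes were -3.62 ± 0.22, -1.78 ± 0.16 and -1.77 ± 0.23 (adjusted p = 6.98e-06, 5.03e-05 and 0.000773). *Cox16* changed by -3.0 ± 0.26 (adjusted p = 4.37e-05), with 56.8% of its exon bases shared with the overlapping model *Gm20498*.

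Transcripts of protein import into mitochondria fell as well. Of 33 import genes tested, 14 fell, 9 were called lower and none rose. *Pmpca*, the alpha subunit of the peptidase that removes targeting signals, stood at 23.6, 26.2 and 23.8 FPKM with DMSO and 2.67, 1.13 and 1.99 FPKM with dTAG13. *Mtx2* stood at 32.1, 19.6 and 30.1 FPKM with DMSO and 2.42, 2.49 and 3.98 FPKM with dTAG13, and *Tomm5*, a small subunit of the outer membrane translocase, at 1477, 1241 and 1365 FPKM with DMSO and 549, 613 and 615 FPKM with dTAG13. The decreases ranged from more than 8-fold for *Pmpca* and *Mtx2* (-3.73 ± 0.23 and -3.67 ± 0.26) to -1.26 ± 0.09 for *Tomm5* (adjusted p = 7.25e-06, 1.44e-05 and 1.36e-05). *Timm23*, the channel of the inner membrane, changed by -1.60 ± 0.11 (adjusted p = 1e-05), with 63.5% of its words shared with pseudogenes and other genes. With the motif, 11 of 13 import genes fell, with a median of -1.43, and without it 3 of 17, with a median of -0.20. Among complex I subunits 3 of 4 with the motif fell and 4 of 28 without it. Among subunits of complexes II and III 4 of 4 with the motif fell and 1 of 4 without it. Among translation factors and tRNA synthetases 5 of 9 with the motif fell and 1 of 21 without it. Among ATP synthase subunits 3 of 4 with the motif fell and 2 of 10 without it. The counts lay closer together for oxidase assembly factors, 5 of 10 with the motif and 3 of 9 without, for oxidase subunits, 1 of 3 and 3 of 9, and for mitochondrial DNA factors, 3 of 8 and 2 of 6. None of these splits was tested.

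**Figure D3:**
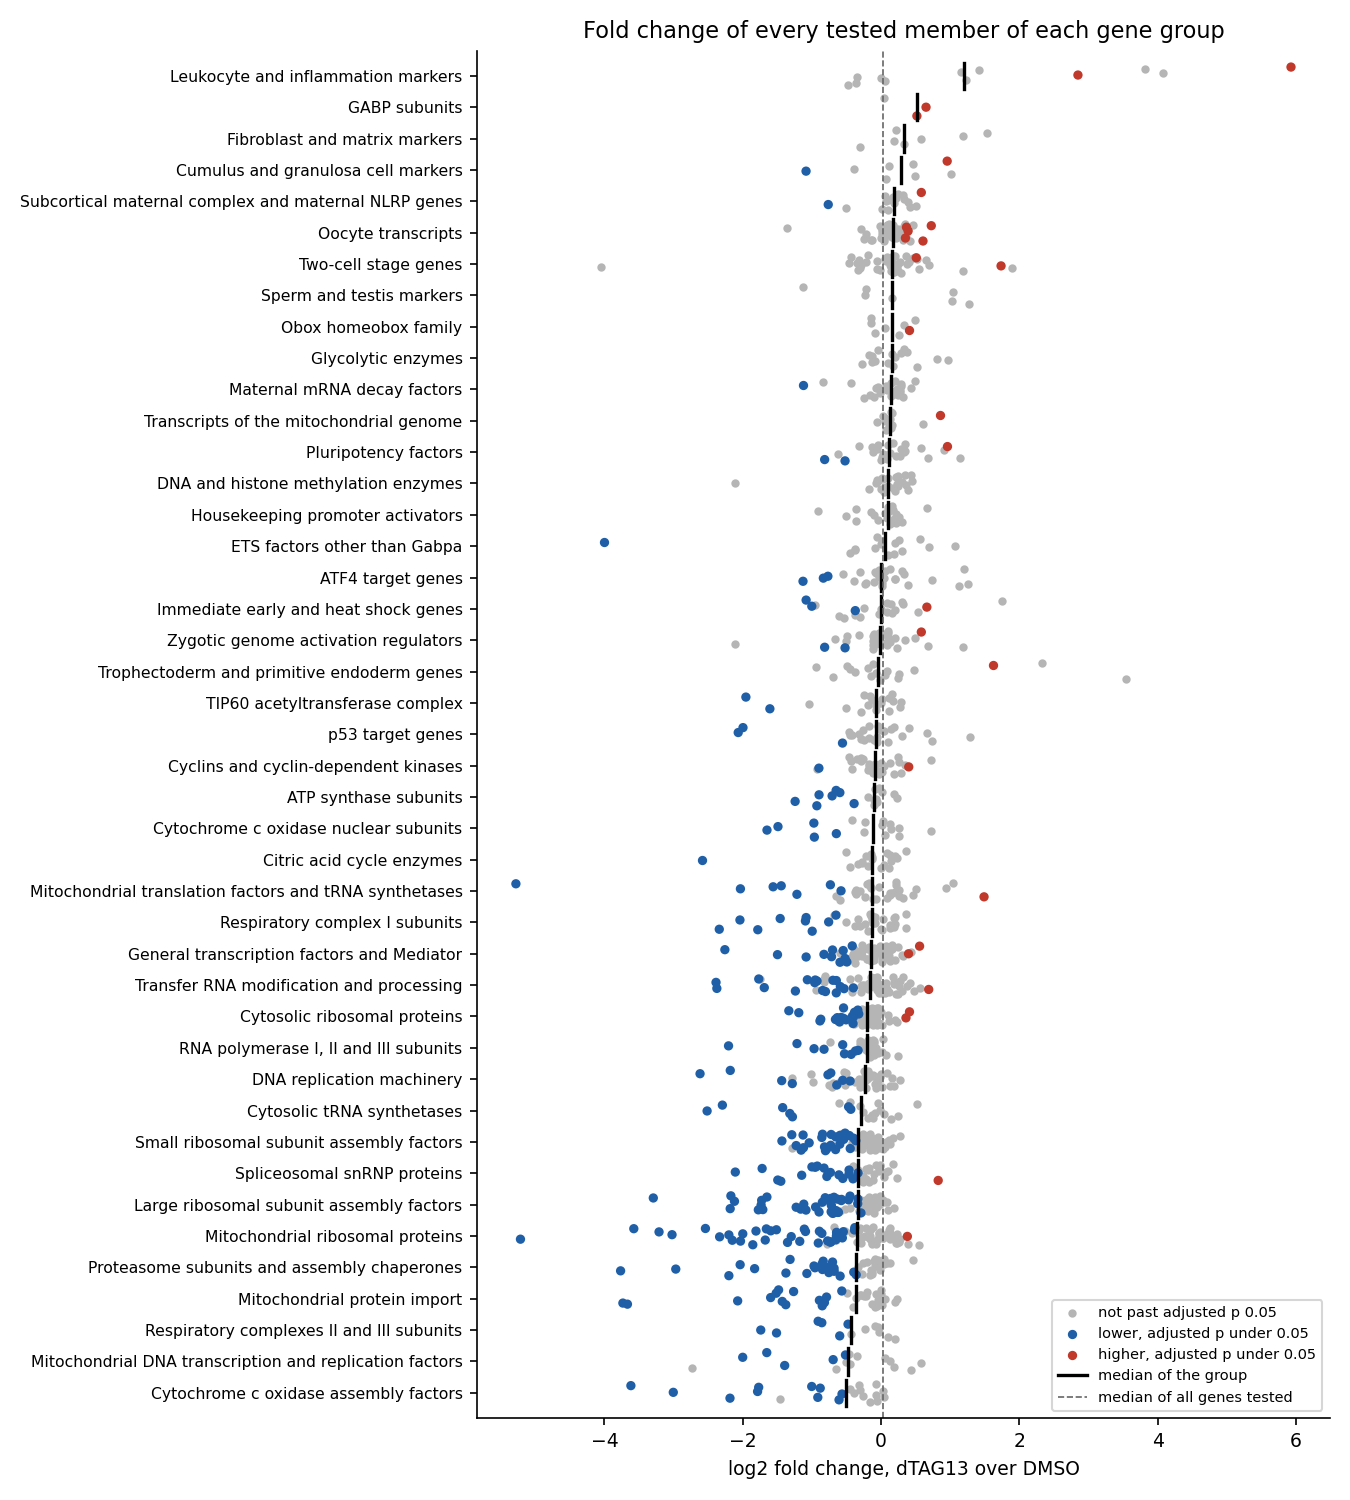
The log2 fold change (dTAG13 over DMSO) of every tested member of the 43 gene groups, 1 row per group, ordered by the group median (black bar), with the median of all genes tested as a dashed line. Members past an adjusted p of 0.05 are blue when lower and red when higher. Blue points fill the lower rows, from cytosolic and mitochondrial ribosome genes to oxidase assembly factors, and groups of oocyte, two-cell and glycolytic genes lie at or right of the dashed line.

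Outside mitochondria, the proteasome, which degrades ubiquitin-marked proteins, had the largest share of its members lower. Of 41 subunits and assembly chaperones, 21 (51.2%) fell, 8 were called lower and none rose, with a median of -0.36. *Psmc1* and *Psmc2*, ATPases at the base of the regulatory particle, stood at 144, 152 and 150.4 FPKM with DMSO and 14.8, 17.7 and 26.7 FPKM with dTAG13 and at 199.9, 239.8 and 194 FPKM with DMSO and 54.3, 64.8 and 68.9 FPKM with dTAG13. *Psmd13*, a lid subunit, stood at 65.1, 60.0 and 61.2 FPKM with DMSO and 14.5, 16.7 and 14.9 FPKM with dTAG13. Every treated sample of the 3 was under every control, with changes of -2.97 ± 0.19, -1.83 ± 0.13 and -2.04 ± 0.14 (adjusted p = 9.17e-06, 1.23e-05 and 1.11e-05). A share of 32.2% of the *Psmc1* words recurs in pseudogenes.

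Transcripts of ribosome assembly factors and of ribosomal proteins fell in part. At the adjusted p, 25 of 66 small-subunit and 35 of 75 large-subunit assembly factors fell and none rose. *Gnl2*, a GTPase of nucleolar large-subunit maturation, stood at 56.2, 40.0 and 52.8 FPKM with DMSO and 10.9, 11.6 and 9.54 FPKM with dTAG13, and *Nip7*, a factor of ribosomal RNA processing, at 279, 302 and 326 FPKM with DMSO and 93.7, 84.1 and 101 FPKM with dTAG13. *Emg1*, the methyltransferase of small-subunit RNA, stood at 618, 689 and 608 FPKM with DMSO and 313, 290.3 and 324 FPKM with dTAG13. The changes were -2.18 ± 0.14, -1.73 ± 0.089 and -1.12 ± 0.086 (adjusted p = 9.38e-06, 4.37e-06 and 2.04e-05). Of 82 cytosolic ribosomal proteins, 20 fell and 2, *Rpl37* and *Rps21*, rose by 0.36 ± 0.078 and 0.41 ± 0.09 (adjusted p = 0.0154 and 0.0158). No member rose without DMSO replicate 1 or dTAG13 replicate 1 or 2, and the number lower was 12 without DMSO replicate 3, 13 without dTAG13 replicate 2, and 10 without dTAG13 replicate 1 or with upper-quartile scaling. Of the members lower, only 2, *Rps27* and *Rps18*, reached 2-fold. *Rps27* stood at 1023, 1073 and 1171 FPKM with DMSO and 449.6, 497 and 443 FPKM with dTAG13, a change of -1.33 ± 0.10 (adjusted p = 2.15e-05), and *Rpl27* and *Rpl34* changed by -0.88 ± 0.1 and -0.87 ± 0.10. Between 10.4% and 27.6% of the words of these 4 genes recur in processed copies. The summed level of all 82 was 54411 to 58686 FPKM with DMSO and 50559.8 to 52370.3 FPKM with dTAG13, without overlap.

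Cytosolic aminoacyl-tRNA synthetases, which charge tRNAs, fell in 7 of 22 cases, with no member higher. *Rars* for arginine stood at 216, 243 and 238 FPKM with DMSO and 48.1, 44.1 and 60.1 FPKM with dTAG13, and *Hars* for histidine at 55.7, 52.9 and 49.5 FPKM with DMSO and 10.4, 11.8 and 11.1 FPKM with dTAG13. The changes of -2.29 ± 0.12 and -2.51 ± 0.15 (adjusted p = 4.82e-06 and 6.64e-06) were large, whereas *Nars* for asparagine changed by -0.47 ± 0.081 (adjusted p = 0.00398). Genes of tRNA modification fell in 18 of 68 cases and rose in 1, *Elp6* (0.69 ± 0.10, adjusted p = 0.00163), and without DMSO replicate 2 the number lower was 11. *Mettl6*, a tRNA cytosine methyltransferase, stood at 118, 142 and 120.2 FPKM with DMSO and 19.4, 21.5 and 24.1 FPKM with dTAG13, a change of -2.37 ± 0.12 (adjusted p = 4.37e-06). *Tprkb*, of the complex that makes the threonyl-carbamoyl base next to the anticodon, changed by -2.39 ± 0.18 (adjusted p = 1.73e-05).

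Among spliceosomal snRNP proteins 18 of 45 fell and 1, *Lsm4*, rose by 0.83 ± 0.14 (adjusted p = 0.0043), and without dTAG13 replicate 3 the number lower was 11. *Snrpb*, a core Sm protein, stood at 127, 143 and 127 FPKM with DMSO and 40.7, 40.0 and 45.7 FPKM with dTAG13, a change of -1.72 ± 0.12 (adjusted p = 1.11e-05), and *Lsm2*, of the U6 ring, changed by -1.45 ± 0.11 (adjusted p = 1.64e-05). RNA polymerase subunits fell in 9 of 32 cases with none higher, but 2 were called, and the number lower was 5 without dTAG13 replicate 1 or with upper-quartile scaling. *Polr2m*, a gene named for an RNA polymerase II subunit, stood at 39.7, 29.3 and 39.4 FPKM with DMSO and 7.94, 7.23 and 9.56 FPKM with dTAG13, a change of -2.20 ± 0.17 (adjusted p = 1.75e-05), and *Polr3d* of RNA polymerase III changed by -1.21 ± 0.15 (adjusted p = 0.000578). Among general transcription factors and Mediator subunits 11 of 61 fell and 2, *Taf6* and *Med21*, rose by 0.56 ± 0.14 and 0.40 ± 0.11 (adjusted p = 0.0325 and 0.0462), but 1 member rose without DMSO replicate 3 and none when any other library was left out. *Med8* stood at 114, 113 and 117 FPKM with DMSO and 30.6, 21.9 and 22.4 FPKM with dTAG13, the largest change of a Mediator gene named here (-2.26 ± 0.14, adjusted p = 7.59e-06). *Med10* changed by -1.08 ± 0.084, with 92.8% of its exon bases opposite another gene. In the TIP60 complex, a histone acetyltransferase, 2 of 19 fell, a share of 10.5% against 10.59% of protein-coding genes with a mean of at least 1 FPKM in a group, the helicase *Ruvbl2* by 1.95 ± 0.15 and *Dmap1* by 1.61 ± 0.19 on the log2 scale (adjusted p = 2.32e-05 and 0.000313).

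In DNA replication 9 of 49 genes fell and none rose. *Tyms*, the thymidylate synthase, stood at 140.2, 166 and 146 FPKM with DMSO and 34.6, 24.3 and 47.4 FPKM with dTAG13, a change of -2.18 ± 0.22 (adjusted p = 0.000111). *Mcm3* of the replicative helicase and *Orc3* of the origin recognition complex changed by -1.28 ± 0.14 and -1.44 ± 0.20 (adjusted p = 0.000233 and 0.00104). Of 29 cyclins and cyclin-dependent kinases tested, *Ccnd3* was lower (-0.90 ± 0.22, adjusted p = 0.0299) and *Ccne2* higher (0.40 ± 0.10, adjusted p = 0.0343), calls made in 1 and 0 of the 6 fits without a library. None of 16 glycolytic enzymes passed the test, with a median of 0.16. Of 20 citric acid cycle enzymes only *Idh3b*, a subunit of isocitrate dehydrogenase, did, at 25.9, 36.0 and 34.6 FPKM with DMSO and 6.42, 5.36 and 4.07 FPKM with dTAG13, a change of -2.59 ± 0.19 (adjusted p = 1.44e-05).

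Genes that respond to stress were examined in lists. Of the p53 list 11.5% fell, of ATF4 targets 10.3% and of immediate early and heat shock genes 14.3%. The share was 7.24% over all genes tested and 10.59% over protein-coding genes with a mean of at least 1 FPKM in a group. Of 26 tested members of the p53 list 3 fell and none rose, among them *Trp53* itself, at 21.9, 27.6 and 24.1 FPKM with DMSO and 7.06, 5.29 and 7.21 FPKM with dTAG13, a change of -1.99 ± 0.19 (adjusted p = 8.78e-05). *Aen*, a p53-induced nuclease, and *Polk*, a translesion polymerase, changed by -0.56 ± 0.14 and -2.06 ± 0.57 (adjusted p = 0.0333 and 0.0486), and each kept its call in only 1 of the 6 fits without a library. Of 29 ATF4 targets 3 fell and none rose, with *Eif4ebp1*, an inhibitor of cap-dependent translation, at -1.13 ± 0.16 and *Phgdh* and *Psph* of serine synthesis at -0.83 ± 0.14 and -0.77 ± 0.18 (adjusted p = 0.00117, 0.00323 and 0.021), the last a call made in 1 of the 6 fits without a library. Of 21 immediate early and heat shock genes 3 fell and 1 rose. *Hsp90aa1*, the inducible form of the chaperone, changed by -0.37 ± 0.066 (adjusted p = 0.00488), and its call was lost with upper-quartile scaling. *Hsph1*, a co-chaperone, stood at 65.5, 60.9 and 67.8 FPKM with DMSO and 32.4, 29.5 and 39.9 FPKM with dTAG13, and *Hspb1*, a small heat shock protein, at 147, 181 and 141 FPKM with DMSO and 267, 269 and 246 FPKM with dTAG13. These moved in opposite directions, by -1.0 ± 0.12 and 0.66 ± 0.12 (adjusted p = 0.000332 and 0.00541). Words shared with other gene models made up 52.3% of *Hspb1*, 51.4% of *Hsp90aa1* and 55.85% of *Phgdh*, so part of their reads may have been assigned elsewhere.

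No transcript that marks the two-cell stage passed the test as lower. Of 42 two-cell stage genes none fell and 2 rose, against 1.32% of all genes tested, with a median of 0.17. *Pramef6* rose by 1.74 ± 0.41 from 1.44 ± 0.577 FPKM (adjusted p = 0.0244), and *Zscan4a* rose by 0.51 ± 0.13 (adjusted p = 0.0388), although 49.9% and 76.7% of their words are shared within their families and the calls were made in 3 and 1 of the 6 fits without a library. The number of two-cell stage genes that rose was 0 without DMSO replicate 1 or dTAG13 replicate 3 and 5 without DMSO replicate 3. Of 8 *Obox* genes, homeobox factors of genome activation, *Obox3* rose, from 346 ± 23.6 to 494 ± 40.6 FPKM, a change of 0.40 ± 0.086 (adjusted p = 0.0144), a call made in 2 of the 6 fits without a library and lost without dTAG13 replicate 1 (adjusted p = 0.0563). The CCGGAAG letters stood in none of the 21 promoters of two-cell stage genes and none of the 5 *Obox* promoters that could be matched.

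Among 28 pluripotency factors 2 (7.14%), *Dppa2* and *Dppa4*, fell and 1, *Tdh*, rose. Among 31 regulators of genome activation 2 (6.45%) fell and 1 rose. Over all genes tested 7.24% fell and 1.32% rose, so neither share of members lower was above that. *Dppa4* and *Dppa2*, partner DNA-binding proteins of both groups, stood at 765, 735 and 763 FPKM with DMSO and 441, 464 and 447 FPKM with dTAG13, and at 504, 500.2 and 540.0 FPKM with DMSO and 389.9, 386 and 349 FPKM with dTAG13. In both every treated sample was below every control, and they fell by 0.81 ± 0.071 and 0.52 ± 0.076 on the log2 scale (adjusted p = 4.37e-05 and 0.00148), short of 2-fold, with 40.1% and 33.8% of their words shared with other genes. *Zbed3*, a maternal-effect gene, rose by 0.58 ± 0.082 (adjusted p = 0.00108). *Tdh*, threonine dehydrogenase, rose from 11.7 ± 2.69 to 23.3 ± 3.41 FPKM, a change of 0.96 ± 0.19 (adjusted p = 0.00895), a call lost without dTAG13 replicate 2. None of 25 DNA and histone methylation enzymes and none of 20 other activators of housekeeping promoters passed the test, with medians of 0.10 and 0.096. Of 16 ETS factors other than *Gabpa*, *Etv3*, a repressor, was the 1 past the test, falling from 1.04 ± 0.299 to 0.0967 ± 0.0635 FPKM (-4.01 ± 0.42, adjusted p = 0.000161).

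A few maternal transcripts rose. Of 48 oocyte transcripts tested 5 rose, against 1.32% of all genes tested, and none fell, 2 rose without DMSO replicate 1 or dTAG13 replicate 2, the median was 0.17, and it was 0.29 with upper-quartile scaling, under which 11 rose. The summed level was 28292 to 31519 FPKM with DMSO and 34206 to 37599 FPKM with dTAG13, and the groups did not overlap. *Uchl1*, a deubiquitinase, stood at 179, 147 and 149 FPKM with DMSO and 256.5, 288 and 269 FPKM with dTAG13, and *Bcl2l10*, a survival factor of oocytes, at 82.1, 79.5 and 88.7 FPKM with DMSO and 131, 153 and 117 FPKM with dTAG13. They rose by 0.73 ± 0.11 and 0.61 ± 0.12 (adjusted p = 0.00166 and 0.00975), while *Oosp1* and *Spin1* rose by 0.39 ± 0.089 and 0.37 ± 0.089 (adjusted p = 0.0201 and 0.0276), calls made in 3 and 2 of the 6 fits without a library. The fifth, *E330034G19Rik*, rose by 0.35 ± 0.095 (adjusted p = 0.0444). Of 26 factors of maternal RNA decay, *Tut7*, which adds uridines to RNA tails, was lower, at 32.9, 34.8 and 23.2 FPKM with DMSO and 14.8, 13.5 and 13.3 FPKM with dTAG13, a change of -1.12 ± 0.14 (adjusted p = 0.000578). In the subcortical maternal complex and NLRP group, *Zbed3* rose and *Nlrp4c* fell (-0.76 ± 0.19, adjusted p = 0.0288), the latter call being made in 1 of the 6 fits without a library, and 3 members rose without dTAG13 replicate 1.

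The largest increases were a mixed set. *Igfbp2*, a binding protein of insulin-like growth factors (ENSMUSG00000039323.18, chromosome 1 from 72824503 to 72852474), stood at 3.17, 3.56 and 3.15 FPKM with DMSO and 11.7, 10.8 and 8.00 FPKM with dTAG13, a change of 1.46 ± 0.26 (adjusted p = 0.00479). *Tfpi*, an inhibitor of coagulation factors (ENSMUSG00000027082.15, chromosome 2 from 84432855 to 84476775), stood at 6.51, 8.29 and 8.60 FPKM with DMSO and 20.8, 22.4 and 22.8 FPKM with dTAG13, a change of 1.58 ± 0.17 (adjusted p = 0.000168). *Btbd19* (ENSMUSG00000073771.11, chromosome 4 from 117119219 to 117125725) stood at 8.39, 6.16 and 10.0 FPKM with DMSO and 28.1, 25.7 and 23.4 FPKM with dTAG13, a change of 1.70 ± 0.21 (adjusted p = 0.0004). In all 3 the treated samples lay close together and above the controls, and the calls held without any 1 library. Of 18 trophectoderm and primitive endoderm genes *Sparc*, a matrix protein of the latter, was the 1 past the test, and it rose from 2.44 ± 0.306 to 8.70 ± 2.24 FPKM, a change of 1.63 ± 0.27 (adjusted p = 0.00342).

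Other increases were less firm. *Snora47*, a small nucleolar RNA, stood at 28.4, 27.7 and 54.2 FPKM with DMSO and 148, 122 and 237 FPKM with dTAG13, a change of 2.17 ± 0.44 (adjusted p = 0.0111) that passed in 4 of the 6 fits without a library. *C920008G01Rik* rose by 2.04 ± 0.41 (adjusted p = 0.0108), but 100.0% of its words occur in other gene models. *Gm5129* rose by 2.24 ± 0.33 (adjusted p = 0.0016), with 83.0% of its exon bases opposite *Dnajb6*, and the antisense genes *Gm12195* and *Gm11659* rose by 1.59 ± 0.43 and 1.48 ± 0.36 (adjusted p = 0.0462 and 0.0274), passing in 0 and 1 of the 6 fits without a library. *Saa3*, an acute phase protein, stood at 2.08, 3.25 and 2.85 FPKM with DMSO and 461, 9.14 and 7.56 FPKM with dTAG13, and *Cyba*, a subunit of the phagocyte oxidase, at 2.57, 1.6 and 1.62 FPKM with DMSO and 32.4, 3.77 and 4.88 FPKM with dTAG13. Replicate 1 stood far above the other treated samples in both, whose fold changes were 5.93 ± 1.54 and 2.85 ± 0.77 (adjusted p = 0.0383 and 0.047). Without that library they were 1.52 and 1.15, with adjusted p = 0.102 and 0.253.

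Markers of other cell types were low outside dTAG13 replicate 1. Of 12 leukocyte and inflammation markers tested, *Saa3* and *Cyba* were the 2 past the test. *Lyz2*, the macrophage lysozyme, stood at 4.25, 6.07 and 4.57 FPKM with DMSO and 215, 3.40 and 5.92 FPKM with dTAG13, a difference of 3.82 ± 1.26 that did not pass (adjusted p = 0.1), and *Cd52* stood at 23.0, 25.9 and 21.5 FPKM with DMSO and 30.4, 21.3 and 25.4 FPKM with dTAG13. The summed level of 25 cumulus and granulosa markers was 27.2 to 32.0 FPKM with DMSO and 28.8 to 34.2 FPKM with dTAG13, and 20 of them stayed under 1 FPKM in all libraries. Within that list *Kitl* was lower (-1.08 ± 0.21, adjusted p = 0.00755), *Tnfaip6* higher (0.96 ± 0.25, adjusted p = 0.0407, and 0.162 without dTAG13 replicate 1) and *Amhr2* not past the test (0.078 ± 0.17, adjusted p = 0.859). Sperm and testis markers summed to 56.6 to 66.0 and 58.3 to 68.4 FPKM, with *Ldhc*, *Odf2* and *Tnp1* not past the test (adjusted p = 0.652, 0.438 and 0.266). Fibroblast and matrix markers summed to 13.7 to 15.8 and 18.5 to 27.1 FPKM, higher in treated samples in sum, and *Thy1*, *Loxl1* and *Vim* did not pass (adjusted p = 0.0753, 0.64 and 0.823).

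Some promoters serve a pair of genes that point away from each other, and this allowed a comparison of neighbours that share 1 stretch of DNA. Of 13725 protein-coding genes tested, 1231 (8.97%) had a tested protein-coding partner on the other strand whose start lay within 1000 bases, as did 91 (15.6%) of the 584 called lower and 2 (3.39%) of the 59 called higher. In 76 of 621 such pairs at least 1 gene was called lower. Both were called lower in 15 of them, and in no pair was 1 gene called lower and the other higher. Of the 91 partners of genes called lower, 41 (45.1%) fell at the adjusted p and none rose. The share lower was 7.24% of all genes tested and 10.59% of protein-coding genes with a mean of at least 1 FPKM in a group. Each of the 15 pairs with both genes called lower gives 2 of the 91 partners and 2 of the 41. Genes in pairs were called lower more often, 91 of 1231 against 584 of 13725. The median log2 fold change of the partners was -0.70. *Timm23* and *Parg*, the enzyme that removes poly(ADP-ribose), start 51 bases apart, and *Parg* went from 25.1 ± 3.70 to 9.14 ± 2.12 FPKM (-1.45 ± 0.18, adjusted p = 0.000551). *Pmpca* and *Entr1*, an endosomal protein, start 23 bases apart, and *Entr1* went from 34.8 ± 2.48 to 6.27 ± 2.77 FPKM (-2.51 ± 0.29, adjusted p = 0.00033). *Orc3* and *Rars2*, both described above, start 13 bases apart. *Sco1* and *Adprm* start 76 bases apart, and *Adprm* changed by -1.34 ± 0.21 (adjusted p = 0.00222). The partners *Parg*, *Entr1* and *Adprm* were chosen after their values were seen. In 61 pairs 1 gene was called lower and the other was not, so neighbours did not always change together. Without dTAG13 replicate 1 there were 14 pairs with both genes called lower.

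**Figure D4:**
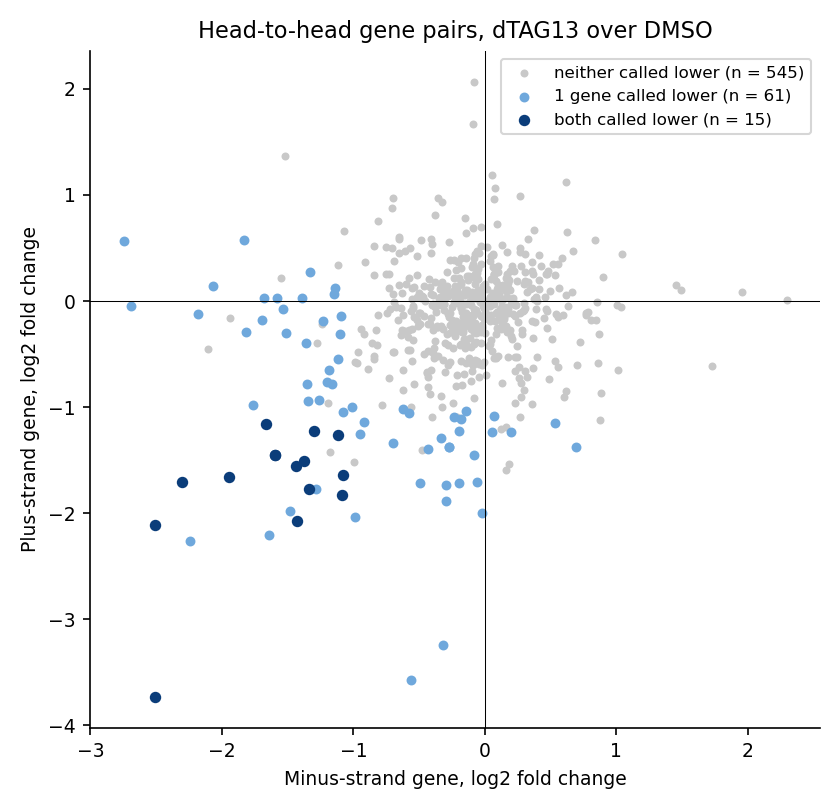
Log2 fold change (dTAG13 over DMSO) of the minus-strand gene against that of the plus-strand gene for 621 head-to-head pairs of tested protein-coding genes with starts within 1000 bases. The 15 pairs with both genes called lower are dark blue in the lower left quadrant, and the 61 pairs with 1 gene called lower are light blue along both axes.

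The estimated transcript mix changed in few genes. RSEM gives each gene a length averaged over its transcripts in each library, and of 9682 genes whose length varied and whose mean count was 50 or more, 2 (0.0207%) differed at the adjusted p (limma), with 783 at an unadjusted p under 0.05. *Ago3*, an Argonaute protein of small-RNA silencing, had weighted lengths of 1179.6, 1166.2 and 1249.1 bases with DMSO and 2167.0, 2052.7 and 2069.3 bases with dTAG13, a log2 shift of 0.81 ± 0.037 (adjusted p = 0.0262). *Mtpn* had 3164.9, 3248.1 and 3227.9 bases with DMSO and 3960.0 bases in each treated library, a shift of 0.30 ± 0.013 (adjusted p = 0.0262). Both genes were also lower in level, with log2 fold changes of -0.41 for *Ago3* (adjusted p = 0.0234) and -1.27 for *Mtpn*, which encodes myotrophin (adjusted p = 2.69e-05). Neither shift was past the threshold when DMSO replicate 1, 2 or 3, or dTAG13 replicate 1 or 2, was left out, nor with the replicate number as a block.

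To see whether the members responded alike at a later stage, their fold changes were set against those in the inner cell mass (ICM) of E4.5 blastocysts of the same genotype, 2 samples per group, treated with dTAG13 or DMSO over a window that began after genome activation. Stage, cell type and window differ together and cannot be told apart in this comparison. Of 20854 genes fitted, 22.5% differed between the stages at the adjusted p for the interaction. Of 121 named genes with over 3 counts in a library of every group, 83 did. Among the 115 of them past the test at the late two-cell stage, 97 had the same sign in the ICM. Most of these genes were named for their two-cell changes, a choice that in part set the count of 83. The share with the same sign over all genes is not given here. *Psmb4* changed by -3.66 ± 0.042 in the ICM, a difference of -0.093 ± 0.23 (adjusted p = 0.882), and *Exoc3* by -4.30 ± 0.089, a difference of 0.52 ± 0.27 (adjusted p = 0.212). Neither difference passed the test. *Mrpl33* and *Tufm* fell further at the late two-cell stage, their changes in the ICM being -2.40 ± 0.046 and -2.15 ± 0.053. They were named for steep two-cell decreases, a choice that favours such a difference, so it is given without a test.

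All 3 GABP subunits were higher in the treated ICM, by 0.95 ± 0.052 for *Gabpa*, 1.33 ± 0.044 for *Gabpb1* and 0.43 ± 0.08 for *Gabpb2*. The rise of *Gabpb1* was larger there (difference -0.67 ± 0.14, adjusted p = 0.00636), and the differences for *Gabpa* and *Gabpb2* did not pass the test (adjusted p = 0.0648 and 0.143). With each stage fitted alone and the estimates compared by a normal test, both passed (-0.43 and -0.391, adjusted p = 0.00117 and 0.0208). Of the named genes, 13 passed the test at both stages in opposite directions. Of these, *Saa3*, *Cyba*, *Ccne2*, *Aen*, *Polk* and *Nlrp4c* missed the threshold at the late two-cell stage without dTAG13 replicate 1. *Igfbp2* went from 32.1 and 36.1 FPKM with DMSO to 2.22 and 2.51 FPKM with dTAG13 in the ICM, a change of -3.83 ± 0.12, while it rose at the late two-cell stage. *Tdh* fell by 1.77 ± 0.037 on the log2 scale in the ICM, and *Txnrd1*, a thioredoxin reductase, rose there by 0.79 ± 0.043 but fell at the late two-cell stage by 1.08 ± 0.17. These 3 were picked for their opposite signs, so their differences are given without a test.

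**Figure D5:**
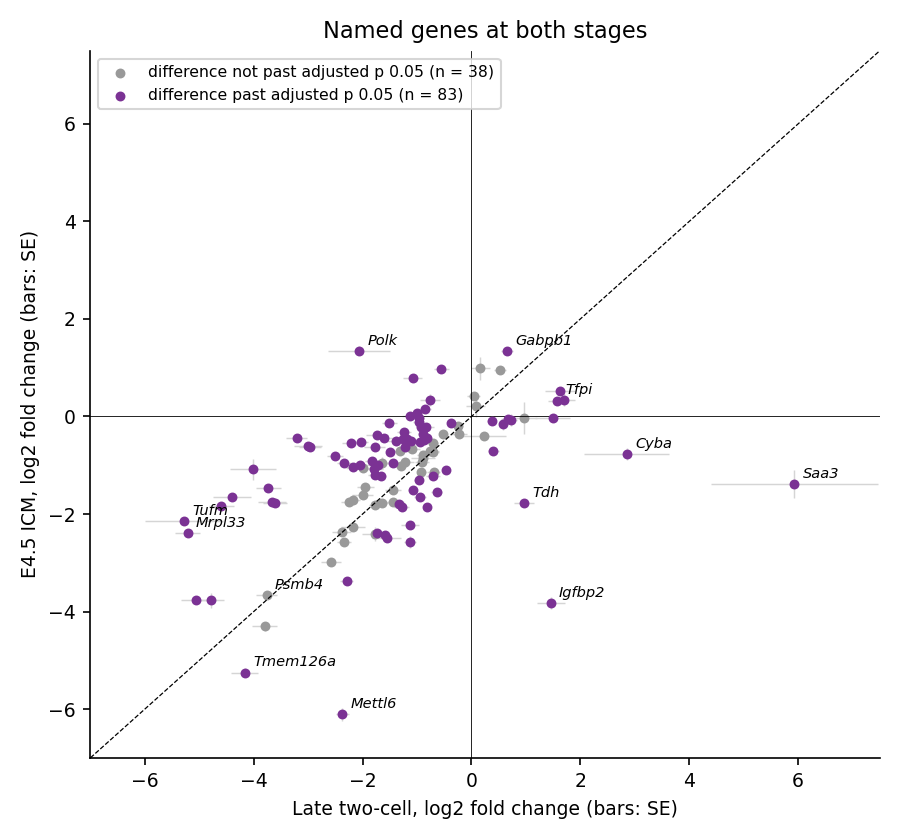
Log2 fold change (dTAG13 over DMSO) of 121 named genes at the late two-cell stage (horizontal, 6 samples) and in the E4.5 ICM (vertical, 4 samples), with bars of 1 SE and a dashed line of equal change. The 83 genes whose difference passed an adjusted p of 0.05 are purple and the other 38 grey. Most points lie in the lower left quadrant, and *Igfbp2*, *Tdh*, *Saa3* and *Cyba* lie at the lower right.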

How the data were processed

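Polyadenylated RNA of whole embryos was amplified with SMART-Seq v4 and made into libraries with Nextera XT, which do not keep strand. The authors used Trimmomatic 0.39 for trimming, STAR for alignment to GRCm38 and RSEM for estimates per gene. The annotation release they used is not given in the sources used here. The deposited tables hold, per gene and library, RSEM expected counts, which are not scaled, FPKM values, which the authors' RSEM run scaled to transcript length and library size, and a transcript-weighted gene length. After rounding to whole numbers, the expected counts were tested with edgeR 4.0.16 (quasi-likelihood, TMM scaling, Benjamini-Hochberg adjustment) for the 17421 genes that reached 10 counts in 3 or more of the 6 libraries, with 20449966 to 23718870 counts per library. FPKM served for levels, for the level cut-off of a call and for 1 alternative test. Standard errors were taken from the fold change and its F statistic. Weighted lengths were tested with limma 3.58.1 on the log2 scale, and the ICM comparison was an interaction term in edgeR over 10 libraries. The scripts were first tested on simulated data with known changes.

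Gene symbols and coordinates came from GENCODE M21 (55144 of 55385 identifiers matched) and promoters from RefSeq. Genes were named by a rule: the GABP subunits, the 10 largest called changes each way among genes with a mean of at least 10 FPKM in a group and no overlap between groups, up to 4 members with the smallest adjusted p per gene list, and the 3 most abundant members of each list of cell type or stress markers. The members and the 43 lists were chosen with earlier results of these data known. Sequence shared between genes was measured as the share of 31-base words of a gene's transcripts that occur in another gene. Alternatives were DESeq2 1.42.0, other scalings, filters and thresholds, limma on log2(FPKM + 1), a replicate block and leaving out each library. No replicate pair agreed within sampling noise.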

Additional observations from a re-analysis of the deposited data

Results flagged for a closer look

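For 27 named genes the log2 fold change at the late two-cell stage minus that in the E4.5 ICM was examined gene by gene, and for 23 it passed an adjusted p of 0.05 in the interaction term of edgeR's quasi-likelihood fit over 10 libraries. Over all 20854 genes fitted 22.5% did. The 27 are the GABP subunits, the genes with the largest two-cell changes and the 13 genes that passed at both stages with opposite signs, so their choice used the same values and in large part set this count. The differences (± SE) are therefore descriptions, and stage, cell type and treatment window differ together.

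Among the genes of the steepest two-cell decreases, the difference was -3.13 ± 0.75 for *Tufm*, -2.81 ± 0.21 for *Mrpl33*, -2.74 ± 0.28 for *Bet1l*, -2.73 ± 0.39 for *Pdcd6*, -1.29 ± 0.35 for *Surf2* and -1.0 ± 0.33 for *Gm49383*, so they fell further at the late two-cell stage, while it was 1.09 ± 0.30 for *Tmem126a*, which fell further in the ICM. The call for *Gm49383* was lost without dTAG13 replicate 1, and that for *Tmem126a* without that library and in the fit of all 14 embryo libraries.

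The difference was 7.31 ± 2.35 for *Saa3*, 3.62 ± 1.09 for *Cyba*, 5.29 ± 0.32 for *Igfbp2*, 1.26 ± 0.15 for *Tfpi* and 1.36 ± 0.31 for *Btbd19* among the largest two-cell increases. Without dTAG13 replicate 1 the values for *Saa3* and *Cyba* were 2.91 and 1.92, with adjusted p = 0.00502 and 0.00884. The partner subunit *Gabpb1* had a difference of -0.67 ± 0.14, having risen more in the ICM.

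Of the genes picked for opposite signs, the difference was 2.75 ± 0.21 for *Tdh*, 1.11 ± 0.14 for *Ccne2*, 0.72 ± 0.15 for *Hspb1* and 0.48 ± 0.13 for *Spin1*, higher at the late two-cell stage and lower in the ICM, and -3.40 ± 0.66 for *Polk*, -1.87 ± 0.18 for *Txnrd1*, -1.52 ± 0.17 for *Aen*, -1.09 ± 0.27 for *Nlrp4c*, -1.06 ± 0.15 for *Hsph1* and -1.0 ± 0.14 for *Uqcrh*, lower at the late two-cell stage and higher in the ICM. *Uqcrh* is a subunit of respiratory complex III. The differences of *Spin1* and *Hspb1* missed the threshold in the fit of all 14 embryo libraries, and the two-cell calls of *Ccne2*, *Aen*, *Polk* and *Nlrp4c* held in at most 1 of the 6 fits without a library.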

How the results depend on the processing

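The 633 genes called lower ranged from 486 to 713 in 10 other settings and from 533 to 590 when 1 library was left out, and were 1253 without the fold change cut-off. With DESeq2, 612 of the 633 were called. The 83 genes called higher depended more on the setting. They were 132 with DESeq2, 125 with upper-quartile scaling, 180 without a filter on low counts, 21 when tested against a fold change of 1.5 and 220 without the fold change cut-off, and they ranged from 45 to 100 when 1 library was left out, with 39 of the 83 among the 45 without dTAG13 replicate 1. Of the genes past the adjusted p, the share that was higher was 15.42% with TMM scaling, 33.5% with upper-quartile scaling, 25.63% with library totals, 25.41% with DESeq2 and 26.59% without a filter. Gene groups with at least 20% of their members lower numbered 16, and 5 when tested against a fold change of 1.5. The CCGGAAG share of 59.8% became 35.4% with the longer letters CCGGAAGT, which stand in fewer promoters by construction, and 61.6% without dTAG13 replicate 1, an alternative added after seeing the data. The 2 genes with a length shift became 9 with a minimum mean count of 200 and ranged from 0 to 3 when 1 library was left out, and the cause was not tested.

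Replicate numbers are shared between the groups, but nothing in the labels says what a number marks. The deviations of same-numbered libraries correlated at 0.062, 0.122 and 0.133, each library correlating best with its own number, which is a hint from the data and not the design. With the number as a replicate block, 643 genes were called lower, 90 higher and 0 had a length shift, and *Saa3*, *Gm12195* and *Polk* missed the threshold (adjusted p = 0.0971, 0.0684 and 0.0667).

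No named gene that passed the test changed sign in any setting. Upper-quartile scaling ended 5 calls, those of *Ccnd3*, *Aen*, *Polk*, *Nlrp4c* and *Hsp90aa1*, and library totals ended 3, limma on FPKM ended 12 and the test against a fold change of 1.5 ended 40. Leaving out 1 library ended 12 to 17. With 3 libraries per group, changes near 2-fold can be missed.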

Other observations

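Some genes called were not protein-coding. Of 937 lincRNA genes tested 13 were called lower and 7 higher, of 901 processed pseudogenes 14 and 8, and of 596 antisense genes 9 and 2. Over all 17421 genes tested 3.63% were called lower and 0.476% higher. Each of these classes was called lower less often than that, and their shares called higher lay on both sides of the latter.

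Members of groups outside the mitochondrion were also split by whether their promoters held the CCGGAAG letters. Among large-subunit assembly factors, 19 of 30 members with the motif fell (median -0.65) and 11 of 31 without it (median -0.26). Among small-subunit assembly factors, 13 of 22 members with the motif fell (median -0.63) and 5 of 30 without it (median -0.16), and among spliceosomal snRNP proteins 8 of 14 members with the motif fell (median -0.54) and 5 of 19 without it (median -0.27). The split was narrower for the proteasome, where 7 of 13 members with the motif fell (median -0.59) and 11 of 21 without it (median -0.36), and for cytosolic ribosomal proteins, where 8 of 24 members with the motif fell (median -0.18) and 8 of 37 without it (median -0.20). These counts were not tested. The share of promoters with the letters was 61.2% among genes that fell at least 4-fold and 68.3% among those that fell at least 8-fold.

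Neighbouring genes whose 5′ ends overlap by up to 200 bases were counted as an addition made after seeing the data. This raised the pairs with both genes called lower from 15 to 21. The additional pairs were *Surf1* with *Surf2*, *Ndufs3* with *Kbtbd4*, *Ndufs1* with *Eef1b2*, *Cir1* with *Scrn3*, *Tma7* with *Ccdc51* and *Hars* with *Hars2*. *Surf1* and *Surf2* fell by 3.62 and 5.06 on the log2 scale. Reads in the overlapping ends cannot be assigned to a strand, so part of each value may come from the neighbour.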
